A study of Mus musculus with 36 samples.

Results

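Modafinil and vehicle mice were compared over the ventral tegmental area (VTA), the nucleus accumbens (NAC) and the prefrontal cortex (PFC) together, and the genes described are those whose difference had the same direction in all 3 regions. A gene was taken when its modafinil mean minus its vehicle mean had the same sign in VTA, NAC and PFC, which was true of 6299 of the 18193 genes on the arrays, 2332 higher and 3967 lower with modafinil. Among them 75 were higher and 69 lower past an adjusted p of 0.05 in a fit over all 36 arrays. The genes higher with modafinil were led by interferon-induced GTPases such as Gbp2, at 4.99-fold, and Igtp, at 3.06-fold, with antigen presentation genes and a smaller group of clock genes that held Per2, at 1.23-fold. The genes lower with modafinil changed less, with a median log2 difference of −0.18 against 0.40 for the higher ones. The direction shared by the 3 regions is how the genes were chosen and is not a result in itself. Among the signals tested, the excess of lower over higher signs shrank under another normalization.

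The samples were male C57B1/6J mice of 20 to 26 g that had been through conditioned place preference, in which an injection is paired with one compartment of a box. Modafinil mice were injected with modafinil at 65 mg/kg before the drug sessions held between days 3 and 10, vehicle mice had saline in its place, and every mouse also had saline on the alternate days. After a test on day 11, which was 24 h after the last dose, 1 mm punches were cut from 100 µm slices, and RNA was read on Affymetrix mouse arrays, on which each probe set covers a stretch of a transcript. Vehicle and modafinil each had 5 arrays from VTA, 5 from NAC and 8 from PFC. For VTA and NAC, RNA of paired tissue pieces was pooled where its integrity number was above 7. Nothing in the labels ties an array to a mouse of its own, so the p-values describe the spread between these samples, which may be technical, and the number of arrays limits their precision.

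Interferons are cytokines that bind receptors at the cell surface and switch on, through Jak kinases and Stat and Irf transcription factors, a large set of genes for defence against microbes. Interferon gamma in particular induces the guanylate-binding proteins (Gbp), the immunity-related GTPases (Irg), which attack the vacuoles of intracellular microbes, and the machinery that shows peptides to T cells. The circadian clock is a separate feedback loop in which Clock and Bmal1 (Arntl on these arrays) drive the Per, Cry, Ciart and Nr1d repressors and output factors such as Dbp, and it runs in cells across the brain.

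On vehicle arrays, the mean level of the markers fixed for each region was highest in the region the labels name, for 11 of 11 midbrain dopamine neuron markers in VTA, 11 of 11 striatal markers in NAC and 9 of 9 cortical markers in PFC. Arrays correlated with those of their own group at 0.963 to 0.991 on average. Median log2 values were 7.20 to 7.27 on PFC arrays and 6.76 to 6.90 on the others, and region entered the fit as a factor. Modafinil PFC array 3 stood apart in striatal neuron markers, whose mean was 10.65, against 8.71 to 8.93 on PFC vehicle arrays and 8.64 to 8.96 on the other modafinil arrays. Its cortical excitatory neuron markers averaged 10.07, against 10.24 to 10.47 on vehicle arrays. Without it 303 probe sets passed the test of a shared modafinil change in place of 227, and 74 of the 75 higher and 62 of the 69 lower genes kept their call. In NAC the striatal neuron markers averaged 10.84 and 10.41 on modafinil arrays 3 and 4, against 11.30 to 11.70 on the other modafinil arrays and 10.80 to 11.78 with vehicle. These 3 arrays were also among the low ones for interferon genes described with the GTPase values, and the part of the markers in that was not tested. Vehicle NAC array 1 stood apart in its beta-actin probe sets, where the 3′ minus 5′ difference was 0.35, against a group median of 0.74. Its Gapdh difference was −0.08, against a group median of −0.10. The top percentile of its values began at 11.43, against 11.88 to 11.93 on the other NAC vehicle arrays, so its bright probe sets read low. Markers of midbrain dopamine neurons also differed by treatment in VTA, where Slc6a3, the dopamine transporter, stood at 12.43, 11.14, 11.07, 9.71 and 10.67 on vehicle arrays and at 8.08, 9.06, 9.30, 8.42 and 10.97 on modafinil arrays. The median change of the 11 measured markers of that list was −1.29 in VTA, −0.09 in NAC and −0.08 in PFC. The part of this difference in the VTA values given here was not tested. In bulk punches, fewer cells of a type and less RNA per cell cannot be told apart.

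Promoter sequences of Gbp2, Igtp, Irgm2 and Ciart were picked by hand from those of the called genes. The sequences are printed so that letters known to bind interferon and clock factors can be read beside the values. They are RefSeq sequences on GRCm38.p6, written 5′ to 3′ on the gene's strand and ending just before its start. The 4 motifs searched, on both strands, were GAS (TTCNNNGAA), the interferon gamma activation site, the core of the ISRE (GAAA, any 2 bases, and GAAA again), which Irf and Stat2 complexes bind, the E-box (CACGTG) of Clock and Arntl, and the D-box (TTATGTAA) of Dbp. The windows run over chr3:142620413-142620662 on the plus strand for Gbp2, chr11:58199306-58199555 on the plus strand for Igtp, chr11:58214727-58214976 on the plus strand for Irgm2 and chr3:95882229-95882478 on the minus strand for Ciart. Matched letters are in capitals.
Gbp2: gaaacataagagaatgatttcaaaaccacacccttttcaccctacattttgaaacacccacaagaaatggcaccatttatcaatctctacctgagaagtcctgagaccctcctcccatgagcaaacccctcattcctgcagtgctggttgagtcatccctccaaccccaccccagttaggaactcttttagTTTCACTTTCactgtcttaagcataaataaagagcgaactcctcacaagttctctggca
Igtp: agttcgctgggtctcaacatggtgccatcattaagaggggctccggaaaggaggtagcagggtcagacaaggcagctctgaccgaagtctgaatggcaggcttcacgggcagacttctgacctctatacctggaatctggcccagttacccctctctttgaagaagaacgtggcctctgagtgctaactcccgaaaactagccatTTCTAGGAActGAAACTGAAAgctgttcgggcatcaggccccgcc
Irgm2: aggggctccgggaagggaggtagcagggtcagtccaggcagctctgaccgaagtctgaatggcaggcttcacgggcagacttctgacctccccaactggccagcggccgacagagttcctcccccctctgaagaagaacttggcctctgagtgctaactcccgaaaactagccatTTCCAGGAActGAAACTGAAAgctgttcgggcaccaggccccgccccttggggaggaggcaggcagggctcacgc
Ciart: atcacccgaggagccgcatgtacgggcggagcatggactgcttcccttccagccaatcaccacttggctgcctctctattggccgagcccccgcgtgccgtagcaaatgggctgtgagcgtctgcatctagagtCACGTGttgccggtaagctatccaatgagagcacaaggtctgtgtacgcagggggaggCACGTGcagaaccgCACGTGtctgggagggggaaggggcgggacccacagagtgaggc
In Gbp2 the capitals mark an ISRE core read on the other strand, 59 to 50 bases before the start. In Igtp, and in its neighbour Irgm2, they mark a GAS followed by an ISRE core, at 45 to 37 and 34 to 25 bases before the start of Igtp and at 75 to 67 and 64 to 55 bases before that of Irgm2. In Ciart they mark 3 E-boxes, the first 116 bases and the last 44 bases before the start.

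Psmb9 and Tap1, described with the antigen presentation genes, lie head to head with starts 226 bases apart on chromosome 17, so that a single stretch, chr17:34187331-34187555, lies before both. It is printed on the strand of Tap1.
Psmb9-Tap1: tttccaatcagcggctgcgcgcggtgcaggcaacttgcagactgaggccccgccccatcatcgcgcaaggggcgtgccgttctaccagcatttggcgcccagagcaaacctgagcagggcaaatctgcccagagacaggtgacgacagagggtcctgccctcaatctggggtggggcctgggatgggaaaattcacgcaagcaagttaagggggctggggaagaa
None of the 4 sets of letters was in this stretch. Windows were matched for 58 of the 75 higher genes and 56 of the 69 lower ones. An ISRE core stood in 17 of the 58 (29.3%) and in 2 of the 56 (3.57%), and in 3.46% of the 27025 genes with a window. A GAS stood in 12 of the 58 (20.7%) and 5 of the 56 (8.93%), against 8.13% of all genes. E-boxes were in 4 of the 58 (6.9%), against 6.86% of all genes, and a D-box in 1, Per3, against 0.977%. Of the 5 higher clock genes 4 had a window, and Ciart alone of these held an E-box. The windows of Ifi47, AW112010, Tnfsf10 and Cd274, which rose more than Ciart, held none of the 4 motifs and are not printed. These are matches of letters, which do not show that a factor binds there.

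Across the regions 146 of the 12610 genes whose probe set passed the filter on dim signals (1.16%) were called, of which 76 genes were higher and 70 lower past an adjusted p of 0.05 (limma, all 36 arrays, region as a factor), 0.603% and 0.555%. Of these 75 (0.595%) and 69 (0.547%) had the same sign in all 3 regions. Of the 27022 probe sets tested 227 were called (0.84%), and 120 were higher (0.444%) and 107 lower (0.396%), a split that became 135 and 34 after quantile normalization of all arrays, which moved the median change of all probe sets from −0.027 to −0.0045. Among all genes 12.8% were higher and 21.8% lower in every region, with a median change of −0.01. Among those that passed the filter the shares were 7.76% and 28.9%. This excess of lower signs depended on the scaling. Of the tested probe sets 2121 were higher and 6834 lower in every region as deposited, and 3351 and 4211 after quantile normalization. Of the 75 higher genes 10 changed by more than 1 on the log2 scale and 27 by more than 0.5. Of the 69 lower genes 1 changed by more than 0.5. On simulated arrays of this design 95% of changes of 0.5 and 100% of changes of 1 were found.

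**Figure D1:**
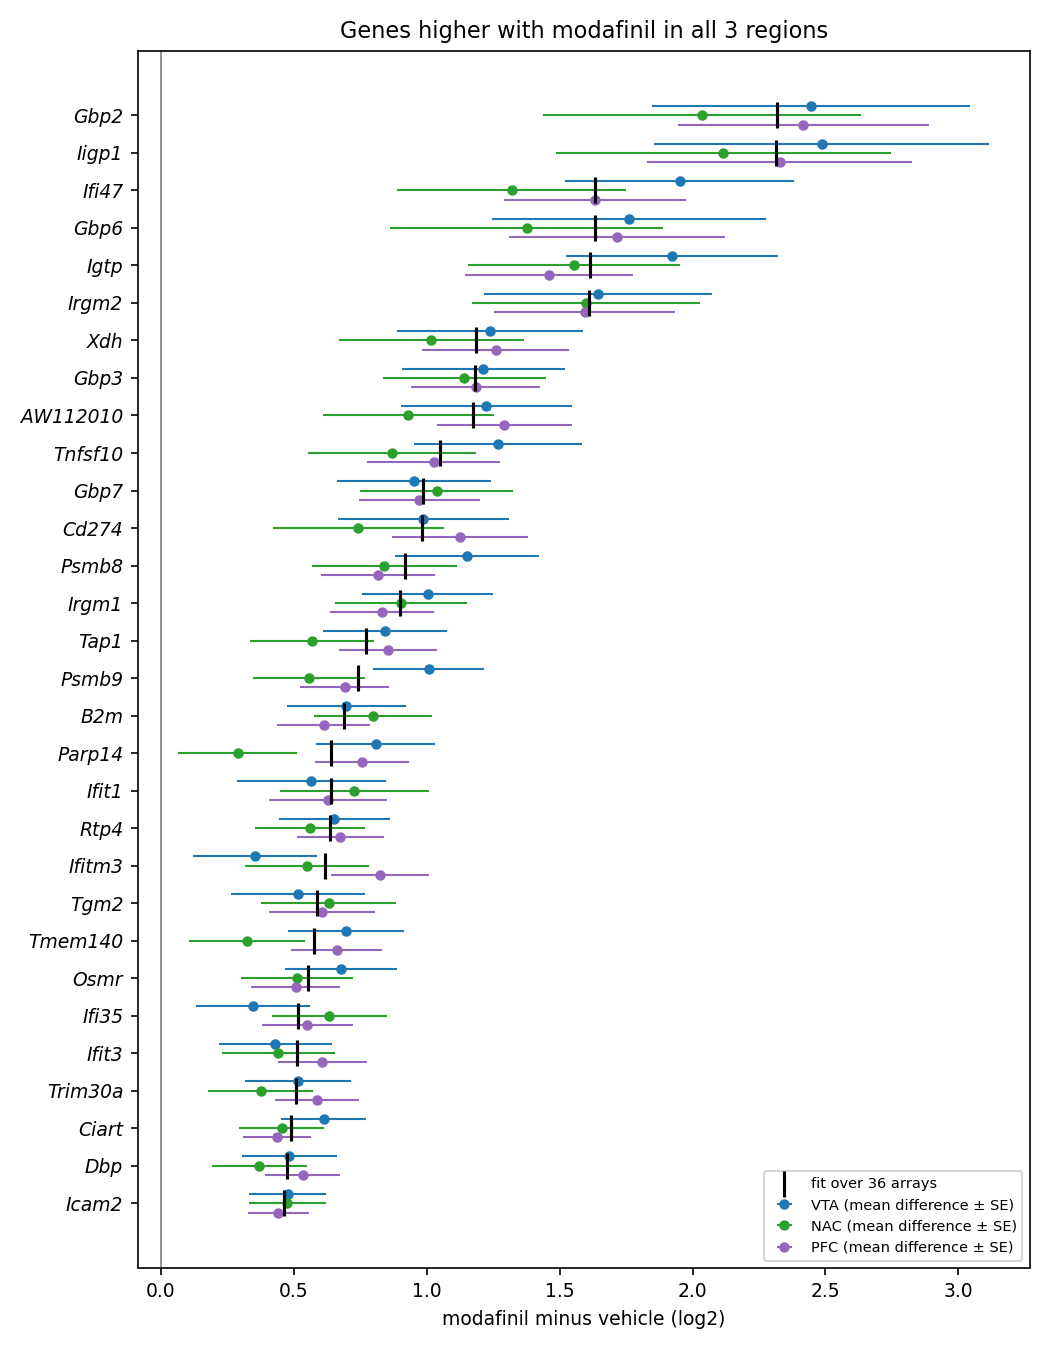
Modafinil minus vehicle (log2) in each region for the 30 called genes with the largest upward change, with points for the 3 regional mean differences, bars for their SE and black marks for the fit over 36 arrays. Gbp2 and Iigp1 lead at 2.32 and 2.31, and the clock genes Ciart and Dbp stand near the end at 0.49 and 0.47.

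Gbp2, a guanylate-binding protein that coats vacuoles of microbes, was 4.99-fold higher with modafinil. In VTA its log2 values were 5.99, 6.36, 6.20, 5.96 and 6.06 on vehicle arrays and 9.29, 9.28, 5.92, 9.02 and 9.29 on modafinil arrays. In NAC they were 5.79, 6.10, 6.16, 5.91 and 5.81 with vehicle and 9.41, 8.86, 6.72, 5.97 and 8.99 with modafinil. In PFC vehicle arrays ran from 5.90 to 6.83 with a median of 6.40, and modafinil arrays from 6.26 to 10.16 with a median of 9.33. Most modafinil arrays therefore stood far above every vehicle array, while array 3 of VTA, array 4 of NAC and array 6 of PFC were no higher than the highest vehicle array, so that the groups overlapped in each region. The change was 2.44 (SE 0.60) in VTA, 2.04 (SE 0.60) in NAC and 2.42 (SE 0.47) in PFC, and 2.32 (SE 0.31) over the 36 arrays, with an adjusted p of 4.2e-05 (limma).

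Igtp, an immunity-related GTPase, is the other leading gene of this group, and its values had the same shape. VTA vehicle arrays read 7.36, 7.68, 7.39, 7.61 and 7.30, and modafinil arrays 9.99, 9.47, 7.56, 9.92 and 10.02. NAC vehicle arrays read 7.09, 7.08, 7.04, 6.94 and 6.99, and modafinil arrays 9.38, 8.86, 7.92, 7.27 and 9.46. PFC vehicle arrays ran from 8.00 to 8.38 with a median of 8.19, and modafinil arrays from 8.06 to 10.69 with a median of 9.79. In NAC the groups did not overlap, since even the lowest modafinil array was above every vehicle array, and in VTA and PFC the same arrays 3 and 6 as for Gbp2 fell inside the vehicle range. The change was 1.92 (SE 0.40), 1.55 (SE 0.40) and 1.46 (SE 0.31) in VTA, NAC and PFC, and 1.61 (SE 0.21) in all, with an adjusted p of 4.2e-05 (limma).

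**Figure D2:**
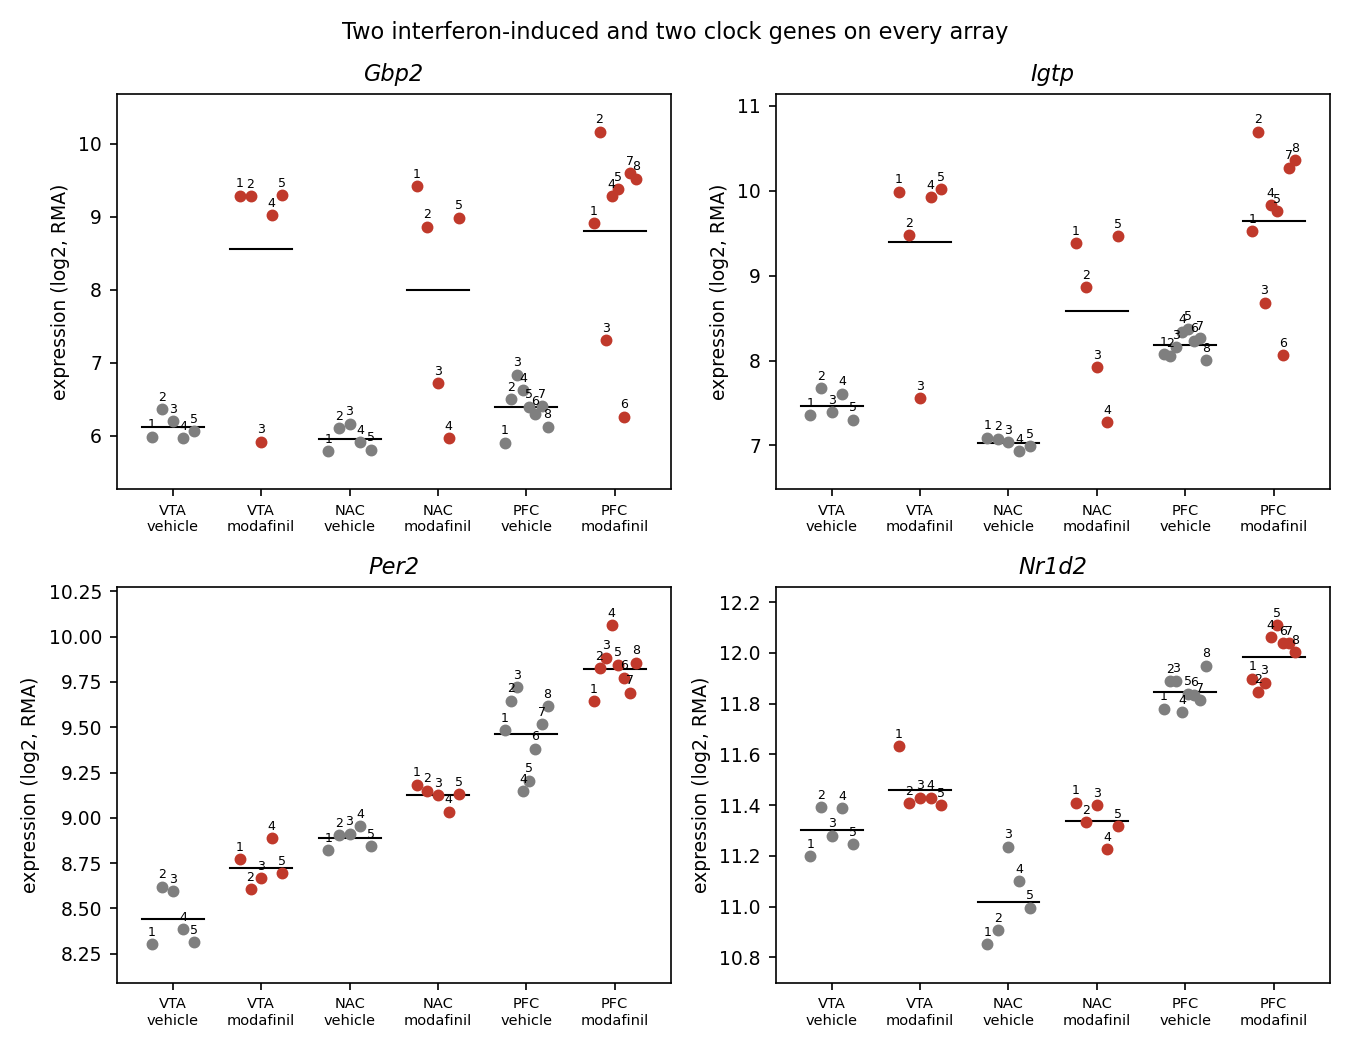
Log2 expression of Gbp2, Igtp, Per2 and Nr1d2 on every array, numbered by replicate, with grey points for vehicle, red points for modafinil and a line at each group mean. Gbp2 on modafinil arrays ran from 5.92 to 9.29 in VTA, with array 3 alone at the vehicle level, whereas Per2 and Nr1d2 were above the vehicle mean of their region on all 18 modafinil arrays.

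All 11 measured interferon-induced GTPases were higher in the 3 regions, with a median change of 1.61, against −0.01 over all genes. The 9 that passed the filter all rose. The filter used the mean of all 36 arrays, modafinil arrays included, so a gene could pass through its high modafinil values. Gbp2, under the cut of 6.39 on every VTA and NAC vehicle array, passed with a mean of 7.35. Counts of genes that rose among those past the filter, here and for the other lists, are therefore partly set by it. Iigp1, an Irg protein, stood at 6.17, 6.92, 6.50, 6.33 and 6.37 on VTA vehicle arrays and at 9.69, 9.28, 6.32, 9.65 and 9.77 on modafinil arrays. In NAC it stood at 5.87, 5.88, 6.13, 5.83 and 6.06 with vehicle and at 9.41, 9.02, 7.20, 5.53 and 9.19 with modafinil. Its highest PFC vehicle array was at 6.93 and its PFC modafinil median at 9.21. Over the 36 arrays Iigp1 rose by 2.31 (SE 0.32) and Ifi47, a further Irg gene, by 1.63 (SE 0.23), the second of these above the vehicle mean on all 18 modafinil arrays. Irgm2 rose by 1.61 and Irgm1 by 0.90, 2 regulators of the other Irg proteins, and Gbp6, Gbp3 and Gbp7 by 1.63, 1.18 and 0.99. Adjusted p-values of these genes were 4.2e-05 to 0.00037 (limma). Gbp8, at 1.31, and Gbp2b, at 0.08, were below the filter and were not tested. Probe sets of these families can read more than one related gene, so the members cannot be fully told apart.

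Genes of class I antigen presentation, which cut proteins, carry the peptides into the endoplasmic reticulum and show them to CD8 T cells, were higher in all 3 regions for 10 of 13 measured, and 8 of the 12 that passed the filter rose, with a list median of 0.27. Psmb8 and Psmb9, catalytic subunits of the immunoproteasome, rose by 0.92 (SE 0.14) and 0.74 (SE 0.11), with adjusted p of 0.00018 and 0.00013 (limma). Psmb9 read 6.98, 7.03, 6.81, 6.91 and 6.81 on VTA vehicle arrays and 8.26, 8.00, 7.07, 8.15 and 8.08 on modafinil arrays, without overlap. Its NAC arrays read 7.02, 6.73, 6.98, 6.87 and 6.89 with vehicle and 7.66, 7.93, 7.07, 6.73 and 7.89 with modafinil. Array 4 of NAC was at the lowest vehicle value. Tap1, a subunit of the peptide transporter and the neighbour of Psmb9, rose by 0.77 (SE 0.12), and in PFC its modafinil arrays, from 6.49 to 7.71, did not overlap the vehicle arrays, from 6.16 to 6.47.

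B2m, the light chain shared by class I molecules, was at 10.34, 10.40, 10.45, 10.12 and 10.24 on VTA vehicle arrays and at 11.29, 11.30, 10.18, 11.14 and 11.13 on modafinil arrays. In NAC it was at 9.85, 10.01, 10.09, 9.76 and 9.69 with vehicle and at 11.20, 11.04, 10.19, 10.07 and 10.89 with modafinil. PFC vehicle arrays ran from 10.56 to 10.98 and modafinil arrays from 10.51 to 11.89, with medians of 10.76 and 11.53. B2m rose by 0.69 (SE 0.11), with array 3 of VTA, array 4 of NAC and arrays 3 and 6 of PFC no higher than the highest vehicle array. The heavy chains H2-D1 and H2-M3 rose by 0.40 and 0.27, and Tap2 and Tapbp, which load peptides, by 0.21 and 0.27. The Tapbp call held in only 15 of 48 alternative settings, such as an array or region left out. H2-K1 at 0.24 did not pass the test (adjusted p = 0.068, limma).

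Genes of class II presentation, which serve CD4 T cells and in brain are expressed mainly by microglia and other phagocytes, were higher in all regions for 4 of 5 measured. H2-Eb1, H2-Aa and Cd74, the chaperone of class II molecules, rose by 0.42, 0.40 and 0.26, 3 of the 4 that passed the filter. Cd74 stood at 7.22, 7.32, 7.10, 7.07 and 6.93 on VTA vehicle arrays and at 7.53, 7.77, 7.37, 7.47 and 7.16 on modafinil arrays. These values overlapped, and 17 of the 18 modafinil arrays over all regions were above the vehicle mean of their region.

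The signalling genes upstream of these effectors moved less. Of 10 interferon ligand, receptor and kinase genes none passed the test (limma), 3 were higher and 1 lower in every region, and their median change was 0.01. Ifng, interferon gamma itself, was below the filter at a change of 0.02, and the receptor genes Ifngr1 and Ifngr2 changed by −0.01 and −0.06. Of 12 measured transcription factor genes 7 were higher in every region and Irf1, Irf7, Stat2 and Irf9 rose, 4 of the 10 that passed the filter, with a list median of 0.17. Irf1, an activator of interferon-responsive genes, rose by 0.41 (SE 0.083, adjusted p = 0.0069, limma). It read 7.55, 7.66, 7.45, 7.67 and 7.50 on VTA vehicle arrays and 8.24, 8.15, 7.49, 8.29 and 8.33 on modafinil arrays. Array 3 was again the one at the vehicle level. Irf7 and Stat2 rose by 0.41 and 0.25, and Nlrc5, a transactivator of class I genes, differed by 1.47 but was below the filter. Of 6 inhibitors of interferon signalling none passed the test (limma), and Usp18, below the filter, differed by 0.40.

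Antiviral genes that type I interferons also induce were higher in every region for 22 of 27 measured, and 15 of the 22 that passed the filter rose, with a median of 0.31. Rtp4 rose by 0.64 (SE 0.11) and Parp14 by 0.64 (SE 0.12), as did Ifit1 by 0.64 (SE 0.14), whose protein binds viral RNA. Rtp4 read 7.16, 7.67, 7.27, 7.21 and 7.39 on VTA vehicle arrays and 8.21, 7.84, 7.34, 8.38 and 8.20 on modafinil arrays. Its NAC modafinil arrays read 8.06, 8.04, 7.12, 6.98 and 7.98, against 7.31 on the highest vehicle array. In both regions the low arrays were those named for Gbp2, joined in NAC by array 3. Bst2, which tethers budding virus, rose by 0.45, Ifit3 by 0.51 and Trim21, an antibody receptor in the cytosol, by 0.27. The Trim21 call held in 20 of 47 alternative settings, and its VTA difference was 0.04. Chemokine genes were mostly dim, with 3 of 10 above the filter, and Cxcl10, a chemokine induced by interferon gamma, differed by 0.41 without a test.

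**Figure D3:**
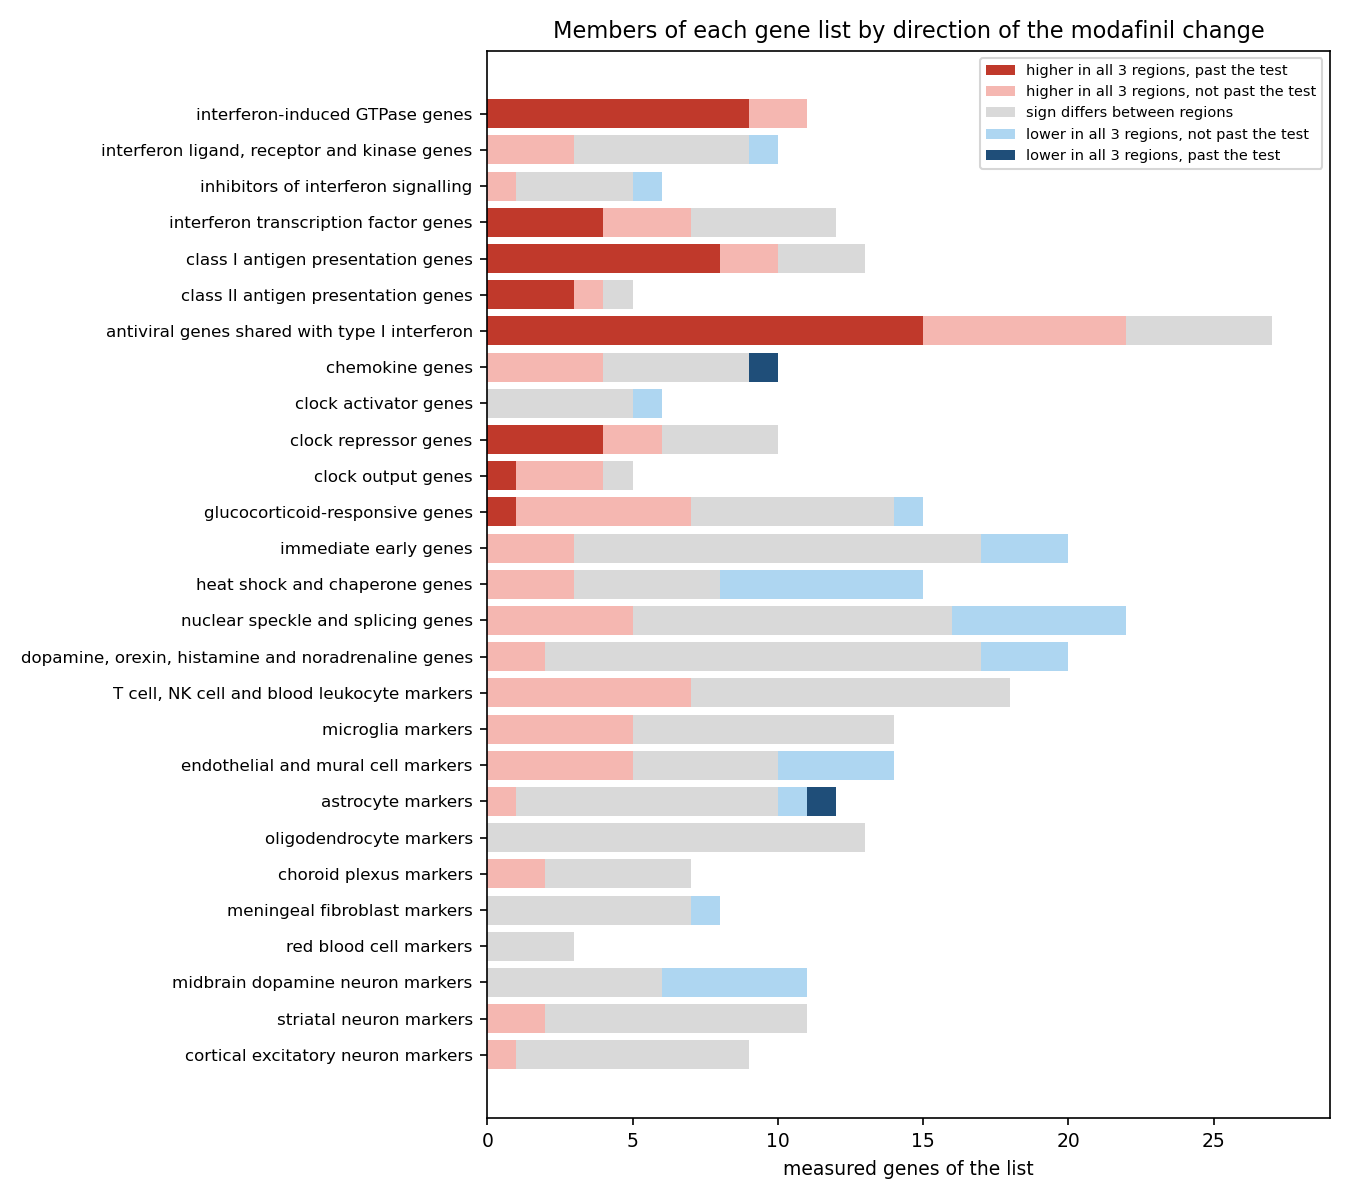
Measured genes of each list (bar length) by the sign of the modafinil change in the 3 regions and by the test over 36 arrays. Of the 27 antiviral genes 22 were higher in every region and 15 of them passed the test, while no microglial, endothelial, leukocyte or oligodendrocyte marker passed it. Only 6 of the 18 leukocyte markers passed the filter and were tested.

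Other large changes lay outside these lists. Xdh, which makes uric acid from purines, rose by 1.19 (SE 0.18), Tnfsf10, the death ligand TRAIL, by 1.05 (SE 0.16), and Cd274, the checkpoint ligand PD-L1, by 0.98 (SE 0.17), with adjusted p of 0.00013 to 0.0007 (limma). Xdh read 6.86, 7.06, 7.33, 6.46 and 6.97 on VTA vehicle arrays and 8.78, 8.17, 7.01, 8.32 and 8.59 on modafinil arrays. Its NAC modafinil arrays read 7.90, 7.97, 6.78, 6.04 and 8.07, and its NAC vehicle arrays 6.37, 6.35, 6.40, 6.06 and 6.48. The arrays at the vehicle level were again array 3 of VTA and array 4 of NAC. AW112010 rose by 1.17. Genes with known expression in vessels also rose, among them Icam2, an adhesion molecule, by 0.46 (SE 0.074), Igfbp7, a matrix protein, by 0.26 and Ramp2, the adrenomedullin receptor partner, by 0.24. These vessel genes were picked from the called genes after their values were seen. Of the 14 measured endothelial and mural markers of the list 5 were higher and 4 lower in every region and none passed the test (limma), with a median of 0.04. Their mean level was 8.37 to 8.71 on vehicle and 8.48 to 8.57 on modafinil arrays in VTA, 8.11 to 8.19 and 8.08 to 8.34 in NAC, and 8.43 to 8.88 and 8.43 to 8.96 in PFC.

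The interferon genes were high or low together on single arrays. The mean of the 11 GTPases minus the vehicle mean of the region was 1.96, 1.84, −0.09, 2.06 and 2.07 on VTA modafinil arrays 1 to 5. On NAC arrays 1 to 5 it was 2.19, 1.76, 0.52, −0.06 and 2.03. On the PFC arrays it ran from −0.14, on array 6, to 2.20, on array 2, with array 3 at 0.41 and a median of 1.62. The vehicle arrays lay between −0.10 and 0.18 in VTA, −0.07 and 0.08 in NAC and −0.18 and 0.17 in PFC. Thus 1 modafinil array of each region was inside its vehicle range, and no array was moved or left out for this. Modafinil array 3 was at or near the low end in all 3 regions, but array 4 was low only in NAC and high in VTA and PFC.

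**Figure D4:**
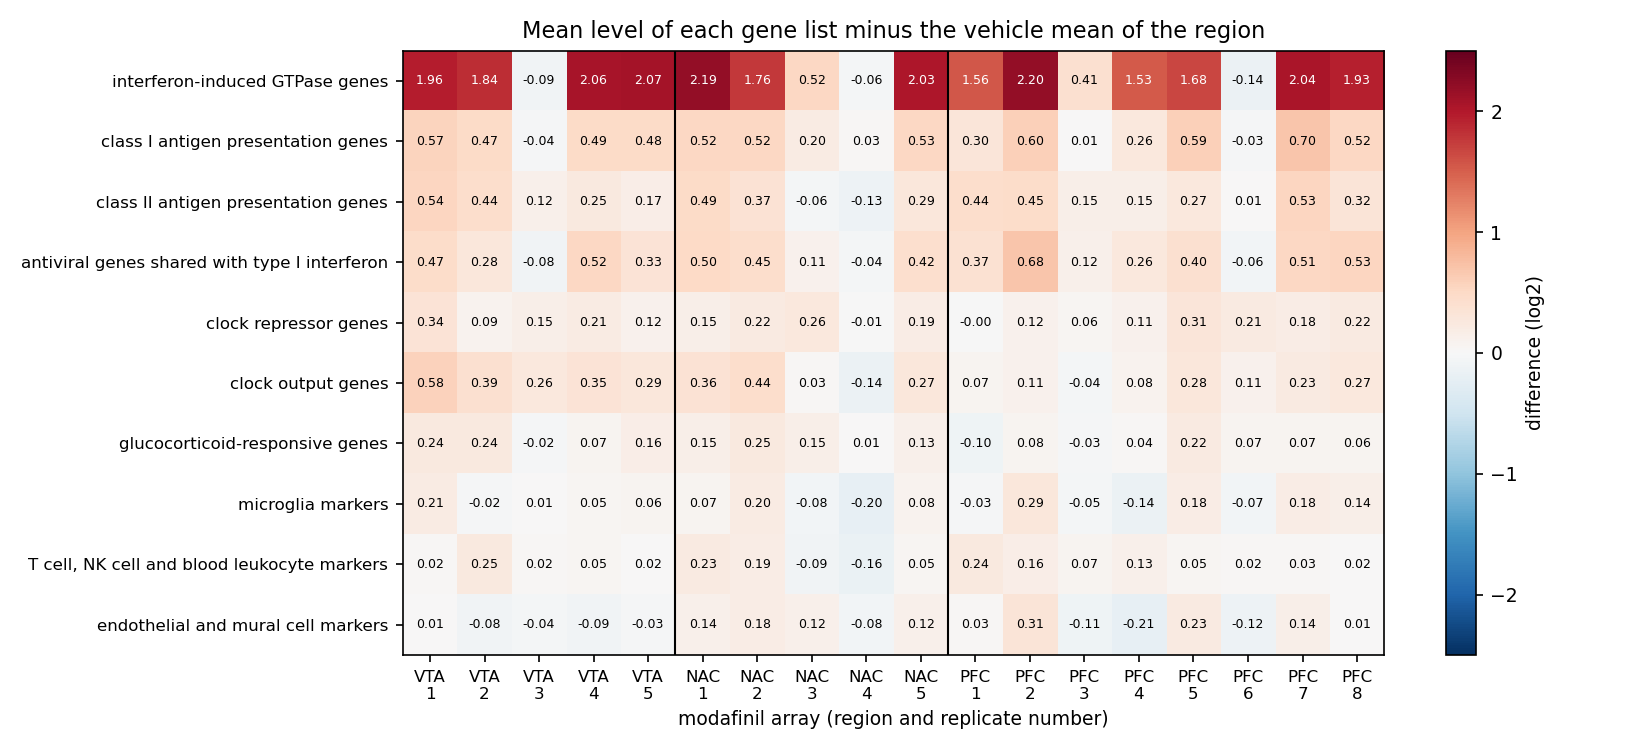
Mean log2 level of each gene list on each of the 18 modafinil arrays minus the vehicle mean of its region, with red for higher and blue for lower. The GTPase row runs from −0.14 to 2.20 and is near 0 on array 3 of VTA, array 4 of NAC and array 6 of PFC, and the leukocyte row stays between −0.16 and 0.25.

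Markers of cells that could bring such genes into a punch were read on the same arrays. Of 18 measured markers of T cells, NK cells and blood leukocytes only 6 passed the filter and could be tested, and none passed the test (limma). Of the 18, 7 were higher and 0 lower in every region, against 12.8% and 21.8% of all genes, and the median change was 0.06. Their mean level was 5.38 to 5.49 on vehicle and 5.45 to 5.68 on modafinil arrays in VTA, 5.52 to 5.73 and 5.49 to 5.88 in NAC, and 6.09 to 6.18 and 6.14 to 6.36 in PFC. This level was above the vehicle mean of the region on every VTA and PFC modafinil array, by at least 0.019 and 0.017. Relative to that mean the NAC modafinil arrays ran from −0.16 to 0.23. The T cell genes Cd3e and Cd8a changed by 0.06 and 0.05, and Gzma, below the filter, by 0.23. Of 14 measured microglial markers 5 were higher and 0 lower in every region, against the same 12.8% and 21.8% of all genes, and none passed the test (limma). Their mean level was 8.06 to 8.26 on vehicle and 8.16 to 8.39 on modafinil arrays in VTA, 8.56 to 8.78 and 8.46 to 8.86 in NAC, and 8.83 to 9.09 and 8.80 to 9.24 in PFC. The part of these cells in the change of the interferon genes was not tested.

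Clock genes formed a further group. Per2, a repressor of Clock and Arntl, stood at 8.30, 8.62, 8.60, 8.39 and 8.31 on VTA vehicle arrays and at 8.77, 8.61, 8.67, 8.89 and 8.69 on modafinil arrays. In NAC it stood at 8.82, 8.90, 8.91, 8.96 and 8.84 with vehicle and at 9.18, 9.15, 9.12, 9.03 and 9.13 with modafinil. In PFC vehicle arrays ran from 9.15 to 9.72 with a median of 9.50, and modafinil arrays from 9.65 to 10.06 with a median of 9.83. The groups did not overlap in NAC, overlapped by 1 modafinil array in VTA, and overlapped in PFC. Per2 rose by 0.28 (SE 0.09) in VTA, 0.24 (SE 0.09) in NAC and 0.36 (SE 0.07) in PFC, and by 0.30 (SE 0.046) in all, with an adjusted p of 0.00013 (limma). It was above the vehicle mean on 18 of 18 modafinil arrays, a pattern seen for 0.033% of all genes. The same arrays chose the gene, so nothing is read from this share. On array 3 of VTA, array 4 of NAC and array 6 of PFC, where Gbp2 was at the vehicle level, Per2 was at 8.67, 9.03 and 9.77, against highest vehicle values of 8.62, 8.96 and 9.72. In NAC its lowest modafinil arrays were 4 and 3, which were also the lowest for the GTPase genes.

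Of the 10 clock repressors 6 were higher in every region and Per2, Per3, Ciart and Nr1d2 rose, with a list median of 0.15. Nr1d2, a nuclear receptor that represses Arntl, read 11.20, 11.39, 11.28, 11.39 and 11.24 on VTA vehicle arrays and 11.63, 11.41, 11.43, 11.43 and 11.40 on modafinil arrays. It rose by 0.20 (SE 0.036, adjusted p = 0.002, limma), without overlap in VTA and above the vehicle mean on all 18 modafinil arrays. Ciart, a repressor whose promoter window with 3 E-boxes is printed with the sequences, rose by 0.49 (SE 0.083). Its VTA vehicle arrays read 7.19, 7.20, 7.25, 7.11 and 7.32 and its modafinil arrays 8.21, 7.88, 7.59, 7.77 and 7.68, again without overlap. In NAC its modafinil arrays read 8.05, 8.12, 8.16, 7.48 and 8.24 against vehicle arrays from 7.34 to 7.75, so that array 4 stood among them. Per3 rose by 0.15, while Per1 at 0.15 and Nr1d1 at 0.05 did not pass the test.

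Of 5 output genes 4 were higher in every region and 1 rose. This was Dbp, a transcription factor whose RNA follows the clock, by 0.47 (SE 0.092, adjusted p = 0.0043, limma). Dbp read 9.62, 9.90, 9.73, 10.21 and 9.59 on VTA vehicle arrays and 10.55, 10.22, 10.08, 10.36 and 10.26 on modafinil arrays. In NAC it read 10.18, 10.09, 10.67, 10.58 and 10.55 with vehicle and 11.03, 11.28, 10.50, 10.03 and 11.09 with modafinil. In NAC array 3 was within the vehicle range, array 4 just under it and the others above it. In VTA the lowest modafinil array for Dbp and for Ciart was array 3, as for the GTPase genes. Among 6 activators no gene rose. Arntl fell by 0.25 over the 36 arrays (SE 0.059, adjusted p = 0.029, limma), but its difference was 0.03 in VTA, −0.40 in NAC and −0.34 in PFC, so it is not among the shared genes. The hour at which each brain was taken is not in the sources used here, and its part in the clock values was not tested.

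Of 15 measured glucocorticoid-responsive genes 7 were higher and 1 lower in every region, and Tsc22d3 alone of the 14 that passed the filter rose, by 0.21 (SE 0.047, adjusted p = 0.015, limma). The list median was 0.11. Zbtb16, a transcription factor induced by glucocorticoids, differed by 0.40 without passing the test (adjusted p = 0.070, limma). Fkbp5 and Sgk1, 2 classical glucocorticoid targets, differed by 0.12 and 0.17 and did not pass. Of 20 immediate early genes, which neuronal activity induces, none passed the test (limma), 3 were higher and 3 lower in every region, and the median was 0.02. Fos and Arc differed by 0.04 and 0.01. Of 20 measured genes of dopamine, orexin, histamine and noradrenaline signalling none passed the test (limma), with 2 higher and 3 lower in every region. Hcrt, the orexin gene, was among the higher ones and Th among the lower. Hcrt differed by 0.90 in VTA, 0.05 in NAC and 0.02 in PFC, and Th by −1.50, −0.16 and −0.46. Neither passed the test of a regional difference (adjusted p = 0.057 and 0.45, limma). The part of the tissue held in the VTA punches in these values was not tested. Heat shock genes had 3 higher and 7 lower of 15 and splicing genes 5 and 6 of 22, none past the test (limma).

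**Figure D5:**
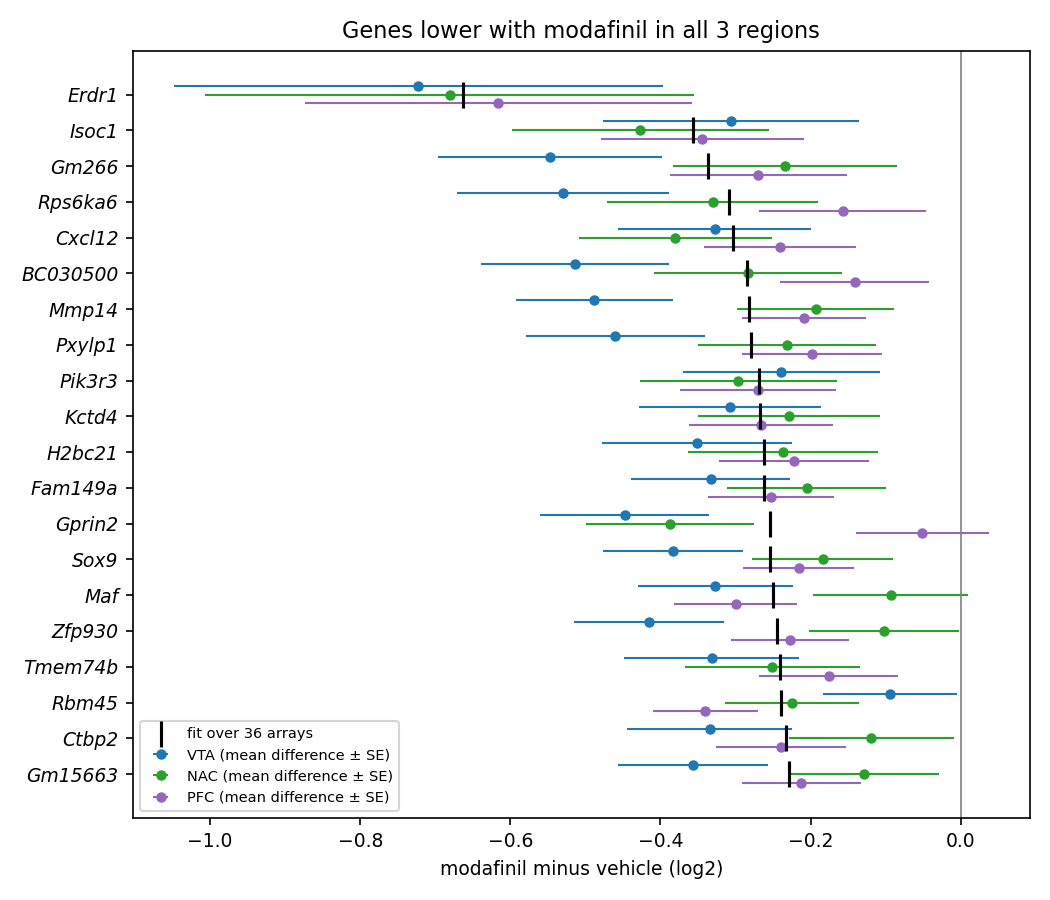
Modafinil minus vehicle (log2) in each region for the 20 called genes with the largest downward change, with points for the 3 regional mean differences, bars for their SE and black marks for the fit over 36 arrays. Erdr1 stands apart at −0.66, and the others lie between −0.36 and −0.23.

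The 69 lower genes changed by −0.11 to −0.66. Erdr1, which has been tied to the control of cell survival, fell by 0.66 (SE 0.17, adjusted p = 0.044, limma). It read 10.60, 10.66, 10.11, 9.74 and 10.55 on VTA vehicle arrays and 9.53, 10.29, 9.90, 8.25 and 10.08 on modafinil arrays. NAC vehicle arrays read 10.77, 10.95, 10.39, 10.34 and 10.40, and modafinil arrays 9.67, 10.10, 9.12, 10.34 and 10.23. The spread within groups was wide, with a VTA modafinil range from 8.25 to 10.29, and the call held in 19 of the 48 alternative settings. Isoc1 fell by 0.36 (SE 0.088, adjusted p = 0.038, limma). The calls of Isoc1 and Rps6ka6 (adjusted p = 0.039, limma) held in 24 and 23 of the 48 settings. Rps6ka6, a ribosomal S6 kinase, fell by 0.31 (SE 0.077), with VTA vehicle arrays at 9.17, 8.95, 9.06, 9.02 and 8.68 and modafinil arrays at 8.25, 8.15, 8.61, 8.55 and 8.68.

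Cxcl12, Mmp14 and Pik3r3 were picked from the lower genes after their values were seen and belong to no common list. Cxcl12, the ligand of the receptor Cxcr4 and the only listed chemokine past the test, fell by 0.30 (SE 0.067, adjusted p = 0.016, limma). It read 9.27, 9.17, 9.42, 8.71 and 9.08 on VTA vehicle arrays and 8.61, 8.87, 9.12, 8.85 and 8.56 on modafinil arrays. In NAC it read 8.81, 8.92, 9.03, 8.89 and 8.84 with vehicle and 8.21, 8.25, 8.92, 8.74 and 8.46 with modafinil. Of its 18 modafinil arrays 16 were below the vehicle mean, and the groups overlapped in each region. Another tested probe set of Cxcl12 differed by −0.098 and did not pass the test (adjusted p = 0.63, limma). It was higher in NAC, by 0.05, so it did not share the sign. Mmp14, a membrane-bound protease of the matrix, fell by 0.28 (SE 0.058), and Pik3r3, a regulatory subunit of phosphoinositide 3-kinase, by 0.27 (SE 0.067). The Pik3r3 call (adjusted p = 0.042, limma) held in 21 of 48 alternative settings and that of Mmp14 in 46.

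Sox9, a transcription factor of astrocytes, fell by 0.25 (SE 0.050, adjusted p = 0.0049, limma). Its VTA arrays read 8.17, 8.40, 7.97, 8.25 and 8.01 with vehicle and 7.72, 7.55, 7.82, 7.82 and 7.97 with modafinil. Its NAC arrays read 7.89, 8.00, 8.06, 7.79 and 7.85 with vehicle and 7.65, 7.69, 7.80, 7.79 and 7.74 with modafinil. The VTA groups did not overlap, by a margin under the rounding. The other 11 measured astrocyte markers did not pass the test, and the list had 1 higher and 2 lower in every region, with a median of −0.01. In VTA the mean of the list, Sox9 included, was 10.331 to 10.410 on modafinil arrays, below the 10.414 to 10.695 on vehicle arrays. In NAC it was 9.89 to 10.04 with modafinil and 9.69 to 10.09 with vehicle, and in PFC 10.15 to 10.68 and 10.13 to 10.90. The part of this in the Sox9 values was not tested. Kctd4 fell by 0.27 and Fam149a by 0.26.

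Genes for proteins that act on chromatin and transcription were also present among the lower genes, picked after their values were seen. Kmt2a, a histone H3 lysine methyltransferase, fell by 0.16 (SE 0.036) and Ctbp2, a corepressor, by 0.23 (SE 0.058). Chd4, a remodelling helicase of the NuRD complex, fell by 0.18 (SE 0.041), but by only 0.03 in VTA. Its other tested probe sets, at −0.04 and −0.07, did not pass (adjusted p = 0.74 and 0.34, limma). The first of these was higher in VTA, by 0.13. Ctbp2 read 9.74, 9.69, 9.77, 9.99 and 9.71 on VTA vehicle arrays and 9.22, 9.24, 9.58, 9.65 and 9.53 on modafinil arrays, without overlap. H2bc21, a histone H2B gene, fell by 0.26 (SE 0.066). Like Ctbp2 it was below the vehicle mean on all 18 modafinil arrays, which held for 9 of the 69 lower genes and 0.121% of all genes. The same arrays chose the genes, so nothing is read from these shares. The calls of H2bc21 and Ctbp2 (adjusted p = 0.042 and 0.041, limma) held in 25 and 24 of the 48 alternative settings. Rbm45, an RNA-binding protein, fell by 0.24, and its PFC modafinil arrays, from 8.75 to 9.16, lay below all vehicle arrays, from 9.17 to 9.53.

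Vehicle and modafinil arrays did not overlap in VTA for 10 of the 75 higher and 25 of the 69 lower genes, where 1.41% and 3.05% of all genes were so separated. In NAC this held for 9 and 6 genes, against 0.253% and 0.269% of all genes, and in PFC for 3 and 1, against 0.0495% and 0.055%. No gene was separated in all 3 regions. The same contrasts chose the genes, so nothing is read from these counts. Of the 144 called genes 61 had more than one tested probe set, and 10 of these, all lower, had a probe set of opposite sign, among them Maf, Mga and Sos1.

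The size of the change differed between regions for 61 of the 12610 genes (0.484%; 0.588% of probe sets; limma F test over 6 group means), and among the 144 called genes for 1. This was Gjc1, the gap junction protein connexin 45, which differed by 0.79 (SE 0.11) in VTA, 0.06 (SE 0.11) in NAC and 0.18 (SE 0.09) in PFC, with an adjusted p of 0.022 for the difference. In VTA it read 8.05, 8.01, 8.31, 8.27 and 8.44 with vehicle and 9.59, 8.61, 9.09, 8.87 and 8.87 with modafinil, without overlap. Hlf, a clock output factor related to Dbp, was higher in every region, but its difference was 1.03 in VTA, 0.22 in NAC and 0.05 in PFC, and it passed the test of the difference (adjusted p = 0.015, limma) and not that of the shared change (adjusted p = 0.074, limma). For Gbp2, Igtp and Per2 the adjusted p of the regional difference was 0.954, 0.883 and 0.839 (limma), which does not show that the regions respond alike. On simulated arrays 59% of regional differences of 0.5 and 95% of those of 1 were found, each the same on every VTA modafinil array.

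Near the edge of the sign rule, Gm11267, Slc18b1 and Bcar3 were kept with NAC differences of 0.02, −0.02 and −0.03. Chd4 was kept with a VTA difference of −0.03, and Arntl was left out by its VTA difference of 0.03. When each region was left out in turn, 32 of the 75 higher genes passed the test without VTA, 53 without NAC and 16 without PFC, and 3, 25 and 3 of the 69 lower genes. In each of these fits and every other setting in which they were tested, 12 higher genes passed: Gbp2, Iigp1, Ifi47, Igtp, Irgm2, Gbp3, Psmb8, Irgm1, Psmb9, Per2, B2m and Icam2. None of the lower genes did. After quantile normalization 73 of the 75 higher and 19 of the 69 lower genes kept their call. With treatment by number as a random replicate block, 55 higher and 18 lower genes kept it, so 20 higher and 51 lower genes lost it. Leaving out 1 array at a time kept 60 to 75 higher and 28 to 68 lower genes. Ciart lost its call without VTA (adjusted p = 0.075, limma) and Xdh without PFC (adjusted p = 0.0501, limma).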

How the data were processed

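The log2 expression values of 36 arrays by 45101 probe sets were used as deposited. Per the submitters' processing notes they came from RMA (version not stated there). RMA averages the probes of a set and equalises the arrays it is run on, so a change common to most genes would be reduced, and PFC values lie on another scale than those of VTA and NAC. Of the probe sets 64 were controls and 34945 carried 1 gene symbol, 34741 of them matched to RefSeq through Entrez identifiers, and each gene was read from its probe set with the highest mean.

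After a filter on dim signals (mean of all arrays below the 40th percentile, 6.39) the remaining 27022 probe sets were fitted in limma 3.58.1 (R 4.3.3) by lmFit and eBayes, region and treatment as factors, Benjamini and Hochberg adjustment and a threshold of 0.05. Regional differences and their SE came from 6 group means. No 2 arrays were identical. The fit was tested on simulated data with independent noise for each probe set and array, in which 0.0526% of unchanged probe sets were called. Noise shared between genes or arrays was not simulated.

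The genes and lists were chosen with earlier results of these data known. Genes named were the 14 largest changes per direction, up to 3 members per list and direction, and fixed interferon, clock and dopamine genes, beside those said to be picked later. Alternatives covered normalization, filter, probe sets, variance model, replicate numbers, region weights, and each array or region left out. Listed genes without a probe set of their own, such as Gbp5 and Isg15, were not analysed here.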

Additional observations from a re-analysis of the deposited data

Results flagged for a closer look

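Single arrays far from the others of their group were looked for among the genes whose array values are given, and 34 of 366 groups of 5 or 8 arrays held one, where chance gives about 1 in 20. Of these, 17 were modafinil VTA array 3, which was low for interferon genes. It stood at 5.92 for Gbp2, 6.32 for Iigp1, 6.62 for Ifi47, 6.41 for Gbp6, 7.56 for Igtp, 6.59 for Irgm2, 7.76 for Gbp3 and 7.67 for Gbp7. The same array stood at 7.38 for AW112010, 6.74 for Psmb8, 7.07 for Psmb9, 6.00 for Tap1, 10.18 for B2m, 6.36 for Parp9, 7.49 for Irf1, 6.59 for Stat2 and 7.26 for Irf9. These genes are not independent of each other, and their flags come from 1 array. In NAC and PFC the low modafinil arrays were not alone enough to stand apart by this measure.

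Modafinil NAC array 4 stood apart with 7.48 for Ciart and 7.88 for Ramp2, both low, and with 6.99 for Fam149a and 8.92 for Ctbp2, both high. Modafinil VTA array 1 was high for Nr1d2 at 11.63 and Per3 at 8.72. Modafinil PFC array 3 was low for Fam149a at 8.05. Among vehicle arrays, VTA array 2 was high for Igfbp7 at 9.24, VTA array 3 low for Mmp14 at 8.15 and VTA array 4 high for Ctbp2 at 9.99. NAC array 2 was high for Zbtb16 at 8.90, NAC array 3 high for Gbp6 at 6.46 and Cd274 at 6.31, and NAC array 5 low for Trim21 at 6.72. PFC array 4 was low for Zbtb16 at 8.83 and high for Slc6a3 at 7.22, and PFC array 6 low for Irf9 at 7.56.

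The size of the modafinil change differed between regions for Hlf (adjusted p = 0.0151, limma F test over 6 group means) and Gjc1 (adjusted p = 0.0216), in both with the largest difference in VTA, where markers of dopamine neurons also differed between the groups.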

How the results depend on the processing

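Counts of probe sets moved with the processing, those of lower ones most. Against 227 calls of a shared change (120 higher, 107 lower) and 159 of a regional difference, quantile normalization gave 34 lower and 241 regional, no filter 64 lower, and 1 probe set per gene 46 regional. A filter at the 60th percentile gave 140 calls, 50 higher, and 3649 genes of shared sign. Array weights gave 556, with 214 higher and 342 lower, and 656 regional. Without VTA there were 69 (60 higher, 9 lower), and without PFC 39 (32 higher, 7 lower). Leaving out 1 array gave 145 (modafinil VTA 1) to 389 (modafinil NAC 3) calls, 99 to 145 higher and 46 to 251 lower. The lower count moved by over 1.5 times without any of 20 arrays: all VTA vehicle arrays, modafinil VTA 1, 2, 4 and 5, vehicle NAC 2 and 5, modafinil NAC 1 and 3, vehicle PFC 1, 3, 4, 5 and 8, and modafinil PFC 1 and 2. Regional calls ran from 79 (without vehicle VTA 1) to 251 (without modafinil NAC 2) and genes of shared sign from 5285 to 7154. The cause of these shifts was not tested. Leaving out a region also leaves fewer arrays. Trend with robust estimation and equal weight of regions kept each count within 1.5 times. Among other genes, Tyk2 turned to −0.011 with array weights, and Arpp21 ran from −0.0042 without vehicle NAC 1 to 0.087 without modafinil NAC 4.

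Whether same-numbered arrays share a mouse is not in the labels, and the data did not settle it. Same-numbered arrays of 1 treatment in different regions correlated at −0.12 to 0.32 over 30 pairs (median 0.07, 9 above 0.1). Same-numbered vehicle and modafinil arrays of a region, which cannot share a mouse, had a median of −0.02. Of 36 arrays 6 correlated best with an array of their own number. This was counted over both treatments, so arrays that cannot share a mouse are included. The number given by chance was not computed, and nothing is read from the count. With the number as a fixed replicate block there were 246 calls (125 higher, 121 lower) and 131 regional. With treatment by number as a random replicate block there were 118 (90 higher, 28 lower) and 240 regional, and 55 of the 75 higher and 18 of the 69 lower genes described kept their call.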

Other observations

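Some genes for receptors of inflammatory cytokines were among those higher in every region, a theme chosen after their values were seen and not tested as a group. Osmr, the oncostatin M receptor, rose by 0.56 (SE 0.11), Il6ra, the interleukin 6 receptor, by 0.26 (SE 0.059) and Il1r1, the interleukin 1 receptor, by 0.24 (SE 0.056), with adjusted p of 0.0046, 0.019 and 0.027 (limma). Il18bp, a secreted inhibitor of interleukin 18 that interferon gamma induces, rose by 0.23 (SE 0.056, adjusted p = 0.036, limma). Mthfd1l, a mitochondrial folate enzyme, passed the test with a change of 0.25 but had a VTA difference of −0.12, so like Arntl it is not among the genes of shared sign.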
